A study of Mus musculus with 6 samples.

Results

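DNA damage signalling and repair genes were examined in Nestin-expressing cells of the neonatal mouse cerebellum. The set holds 47 named genes of 19630 listed, each matched to 1 row of the expression table by its symbol. They cover the damage kinases, chromatin factors at breaks, end resection, homologous recombination, the Fanconi anaemia pathway, end joining, base, nucleotide and mismatch excision repair. The mice were Swiss webster carrying 1 Nes-CFP reporter allele (Nes-CFP/+). Their cerebella were taken at postnatal day 5 and dissociated, CFP-positive cells were sorted, and the RNA was sequenced. The irradiated group came from mice irradiated at postnatal day 1 and the control group from non-irradiated mice of the same genotype, with 3 libraries each. Neither the dose nor the number of animals behind a library is stated in the labels. The spread used by the tests is therefore that of these libraries, and how much of it is technical is not known. Nes-CFP is a cyan fluorescent reporter of *Nes*, the gene of the intermediate filament protein Nestin, and the sort can hold any cell in which that reporter is on.

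A double-strand break is sensed by the Mre11-Rad50-Nbn complex, which recruits the kinase ATM, while the kinase ATR responds to single-stranded DNA. Breaks are then either resected and copied from a sister chromatid by homologous recombination, which operates in S and G2 phase, or rejoined directly by end joining, which operates throughout the cell cycle. In the developing cerebellum, inherited defects of these genes are known to cause loss of neural progenitors or neurons, and much of the regulation of the damage sensors and kinases occurs on the protein rather than the transcript.

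Expression is given as scaled counts, that is, reads of a gene divided by a size factor for the library. The libraries held 30986269 to 37067530 reads over the listed genes. A log2 fold change is the irradiated mean minus the control mean of log2(scaled count + 1), a scale that understates changes of low genes. It is given with its standard error (SE) or its 95% limma interval. *Cdkn1a*, the p53 target that encodes the cell cycle inhibitor p21, had 1470, 1843 and 1831 scaled counts in the irradiated libraries, against 289, 235 and 402 in the controls (log2 fold change 2.50, SE 0.20, limma adjusted p = 0.00372). All 3 irradiated libraries thus lay far above the 3 controls. *Nes* had 10836 ± 3079 scaled counts in the irradiated group and 9180 ± 833 in the control group (SD, n = 3 each). The 10 sort and lineage markers, which include *Nes*, *Sox2*, *Fabp7* and *Zic1*, were all detected, 3 fitted higher and none past the adjusted threshold of limma, and summed to 289181 to 441934 scaled counts in irradiated and 381770 to 471595 in control libraries. Within this list *Pax2*, a marker of cerebellar interneuron precursors, had 232, 373 and 282 scaled counts in irradiated libraries, against 496, 729 and 588 in controls, without overlap. Its log2 fold change was -1.04 (SE 0.21), with an adjusted p of 0.237 in limma, 0.0442 in limma with the replicate block and 0.00153 in DESeq2. *Atoh1*, a marker of granule cell precursors, had 283, 483 and 681 scaled counts in irradiated libraries, against 209, 144 and 324 in controls, with overlap (log2 fold change 1.08, SE 0.36, limma adjusted p = 0.837). Both were named after their values were seen, and the part of the cell makeup in the repair gene levels was not tested. Microglial markers, 4 of 6 fitted higher, summed to 1712 to 2817 scaled counts in irradiated and 1142 to 2913 in control libraries. Endothelial markers, 1 of 6 fitted higher, summed to 2219 to 3468 in irradiated and 2798 to 3850 in control libraries. Pericyte markers, 2 of 5 fitted higher, summed to 3018 to 5347 in irradiated and 3822 to 5480 in control libraries. The most abundant of them, *Cspg4*, made up much of these sums, at 2445 ± 832 in irradiated and 2320 ± 725 in control libraries. It had a log2 fold change of 0.0695. *Pdgfrb* had 339, 461 and 353 scaled counts in irradiated libraries, against 558, 550 and 769 in controls. Its log2 fold change was -0.70 (SE 0.19, limma adjusted p = 0.542). *Pdgfrb* and *Kcnj8* were lower without overlap, 2 of 5 markers, beside 4.01% of all genes tested. These 3 were named after their values were seen. All 4 erythroid genes tested were fitted lower, with sums of 317 to 391 in irradiated and 484 to 839.5 in control libraries. Purkinje cell markers, 4 of 6 higher, summed to 10807 to 11483 in irradiated and 10773 to 11563 in control libraries. Of these lists only the erythroid sums did not overlap. A sum follows its most abundant genes, so the overlap of the pericyte sums does not describe the other pericyte markers. The part of these cells in the repair gene levels was not tested. All 4 Y-linked genes were fitted higher in the irradiated libraries, with sums of 3939 to 8911 against 1536 to 5095 in the controls. Their level thus also differed between libraries of the same group. With their level as a covariate limma again called 0 members, but fitted log2 fold changes then ran from -0.60 for *Palb2* to 0.43 for *Fanci*. In that fit *Rad51ap1* was at -0.57, *Xpa* and *Xrcc3* at -0.51, *Lig4* at -0.49 and *Rnf8* at -0.45, and the lowest adjusted p of a member was 0.277, for *Rad51ap1*. Of 6 erythroid genes listed 4 were in the table, and no marker in the table was at 0 in any library.

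No repair gene passed the test between irradiated and control libraries, and the fitted differences were small. None of the 47 members passed limma at an adjusted p below 0.05, where 0.054% of the 16674 genes tested did, and each member had a limma adjusted p of 1. At an unadjusted limma p below 0.05 the count was also 0 of 47, against 4.5% of all genes tested. edgeR on the recovered reads called 0 members at an adjusted p below 0.05 and 0 at an unadjusted one, beside 0.048% and 4.64% of all genes tested. DESeq2 called 0 and 0, beside 0.612% and 4.45%. With the replicate number as a block, limma called 0 and 2, beside 0.15% and 8.29%, and edgeR with the block 0 and 2, beside 0.048% and 8.42%. Both block fits gave *Fanci* and *Rbbp8* at the unadjusted threshold. The fitted level was higher in 25 members and lower in 22, or 53.2% higher, beside 49.4% of all genes tested. The median log2 fold change was 0.014 over the members and -0.0028 over all genes. Single members ran from -0.23 for *Xrcc3* to 0.24 for *Rbbp8*.

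A p that misses the threshold does not show that the levels were equal, so the intervals of the differences are given as well. In the limma fit without a block or covariate, the 95% interval of the fold change lay within 2-fold in either direction in all 47 members. It did so for 83.9% of all genes tested. In 43 of the 47 it lay within 1.5-fold. The share for all genes tested was 59.1%, and for the 3797 genes with a mean level between the members' quartiles, 802 to 2085 scaled counts, it was 86.9%. The exceptions were *Atrip*, *Palb2*, *Rnf8* and *Xrcc3*. With the Y-linked level as a covariate the fitted log2 fold change of *Palb2* was -0.60, and intervals of that fit are not given here. The libraries come from sorted bulk cells, in which fewer cells of a type and less RNA per cell cannot be told apart.

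**Figure D1:**
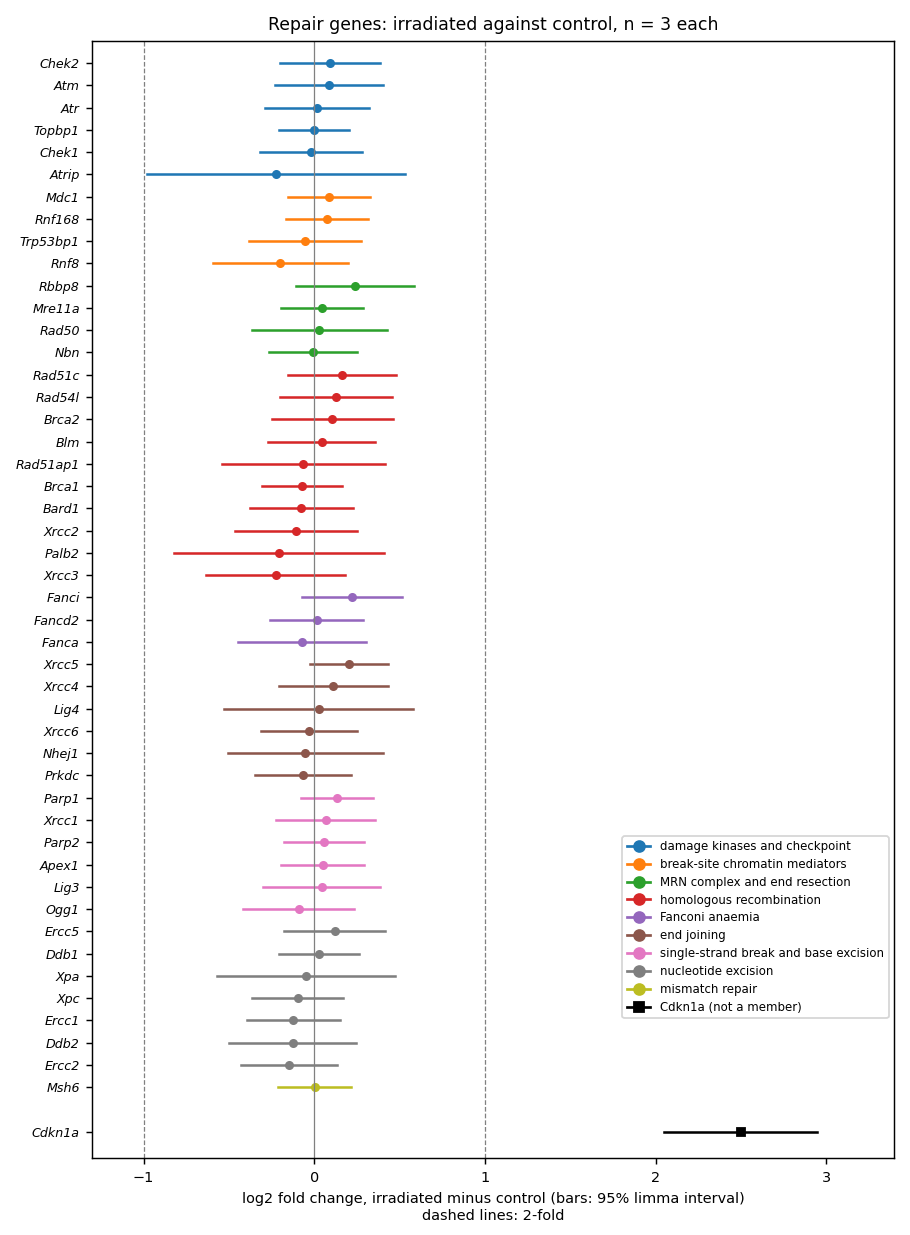
Log2 fold change (irradiated minus control, x axis) of each of the 47 members with its 95% limma interval, coloured by pathway, and of *Cdkn1a* for scale. In this fit, without a block or covariate, every member's interval lies between the dashed 2-fold lines, whereas *Cdkn1a* lies at 2.50.

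The damage kinases and their partners relay the signal of damage to the cell cycle. *Topbp1*, which encodes the scaffold that activates ATR, had the highest count of the 6 genes, with 7090, 7057 and 6915 scaled counts in irradiated libraries and 6763, 7335 and 6992 in controls. The irradiated values lay inside the control range, and the log2 fold change was -0.0012 (95% interval -0.21 to 0.20). *Atm*, the kinase gene mutated in ataxia telangiectasia, stood at 2412 ± 277 in irradiated and 2281 ± 367 in control libraries (log2 fold change 0.086). *Atr* stood at 2185 ± 176 in irradiated and 2173 ± 341 in control libraries (log2 fold change 0.017). The effector kinase genes *Chek1* and *Chek2*, which act downstream of ATR and ATM, had log2 fold changes of -0.018 and 0.093. *Chek1* averaged 1292 ± 118 scaled counts in irradiated and 1313 ± 175 in control libraries. *Chek2* averaged 914 ± 26.2 scaled counts in irradiated and 861 ± 104 in control libraries. *Atrip*, which encodes the obligate partner of ATR, had only 27.1 to 37.3 scaled counts in irradiated and 27.3 to 56.1 in control libraries. Its log2 fold change of -0.22 had the widest interval of the set, -0.98 to 0.53. *Atrip* overlaps *Trex1* on its own strand in the annotation, and how reads of shared bases were counted is not given in the sources used here.

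Chromatin factors mark a break and recruit repair proteins to it. *Trp53bp1*, whose product 53BP1 restrains resection, had 5179, 5759 and 4508 scaled counts in irradiated libraries and 5420, 6265 and 4422 in controls (log2 fold change -0.053). In both groups the library numbered 2 was highest and the one numbered 3 lowest, and the groups overlapped over most of their range. *Mdc1*, encoding the mediator that binds phosphorylated H2AX, stood at 4382 ± 252 in irradiated and 4133 ± 392 in control libraries (log2 fold change 0.087). The ubiquitin ligase genes *Rnf8* and *Rnf168*, which act in sequence on chromatin at breaks, had log2 fold changes of -0.20 (SE 0.18) and 0.074 (SE 0.11). *Rnf8* averaged 312 ± 28.9 scaled counts in irradiated and 361 ± 59.2 in control libraries. *Rnf168* averaged 2327 ± 152 scaled counts in irradiated and 2210 ± 142 in control libraries.

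In the resection group, *Mre11a*, encoding the nuclease of the break sensor, had 1750, 1710 and 1660 scaled counts in irradiated and 1722, 1734 and 1520 in control libraries (log2 fold change 0.044). *Rad50*, encoding its ATPase partner, averaged 1185 ± 236 scaled counts in irradiated and 1154 ± 183 in control libraries (log2 fold change 0.030). *Nbn*, encoding the subunit that binds ATM, averaged 1475 ± 114 scaled counts in irradiated and 1483 ± 101 in control libraries (log2 fold change -0.0080). The 2 groups overlapped in each of the 3 subunits. *Rbbp8*, encoding the resection factor CtIP, had 1255, 1376 and 1706 scaled counts in irradiated libraries, against 1050, 1230 and 1390 in controls. Each irradiated library exceeded the control of its own number, although the 2 groups overlapped. The log2 fold change was 0.24 (SE 0.15, limma adjusted p = 1). With the replicate block the limma adjusted p was 0.507. With the Y-linked level as a covariate the direction turned, with a log2 fold change of -0.064 (limma adjusted p = 0.921).

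The 10 homologous recombination genes were fitted higher in 4 and lower in 6, with a median log2 fold change of -0.068. *Brca1*, the member with the highest count, had 2215, 2373 and 2179 scaled counts in irradiated libraries and 2183, 2496 and 2447 in controls (log2 fold change -0.073, 95% interval -0.31 to 0.16). Its ubiquitin ligase partner gene *Bard1* stood at 1051 ± 81.8 in irradiated and 1112 ± 143 in control libraries (log2 fold change -0.076). *Brca2*, encoding a mediator of homologous recombination, stood at 1640 ± 94.4 in irradiated and 1545 ± 321 in control libraries (log2 fold change 0.11). *Palb2*, which bridges the BRCA1 and BRCA2 proteins, had 303, 263 and 271 scaled counts in irradiated libraries and 197, 418 and 403 in controls. Control library 1 was low, the irradiated values lay inside the control range, and the interval was wide (log2 fold change -0.21, 95% interval -0.82 to 0.41). Without control library 1 the log2 fold change of *Palb2* was -0.56 (limma adjusted p = 0.681). The recombination genes *Rad51c*, *Xrcc2* and *Xrcc3* had log2 fold changes of 0.16, -0.11 and -0.23. *Rad51c* averaged 527 ± 52.0 scaled counts in irradiated and 469.9 ± 24.1 in control libraries. *Xrcc2* averaged 1029 ± 179.6 scaled counts in irradiated and 1103 ± 136 in control libraries. *Xrcc3* averaged 467 ± 101 scaled counts in irradiated and 539.7 ± 54.4 in control libraries. *Rad54l*, encoding a translocase of the strand exchange step, and *Blm*, the Bloom syndrome helicase gene, had log2 fold changes of 0.13 and 0.044. *Rad54l* averaged 1323 ± 129 scaled counts in irradiated and 1219 ± 207 in control libraries. *Blm* averaged 1696 ± 56.4 scaled counts in irradiated and 1661 ± 285 in control libraries. *Rad51ap1*, whose product stimulates strand invasion, had a log2 fold change of -0.063.

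Fanconi anaemia genes act at DNA interstrand crosslinks. *Fancd2*, with 1468, 1661 and 1355 scaled counts in irradiated and 1462, 1598 and 1374 in control libraries, had a log2 fold change of 0.014. *Fanci*, encoding the partner of FANCD2 in the clamp that is ubiquitinated at crosslinks, had 1664, 1665 and 1400 in irradiated libraries, against 1448, 1435 and 1180 in controls. The irradiated library of each number was higher than its control, and irradiated replicate 3 lay below the 2 highest controls. Its log2 fold change was 0.22 (SE 0.13, limma adjusted p = 1, or 0.534 with the block). *Fanci* overlaps *Polg* on the opposite strand, and the strand setting of the counting is not given in the sources used here. *Fanca*, a subunit of the core ligase complex, had a log2 fold change of -0.073. *Fanca* averaged 1227 ± 214 scaled counts in irradiated and 1289 ± 213 in control libraries. S and G2 phase is when recombination operates, so the levels of 12 proliferation genes stand beside these groups. They were fitted higher in 11 of 12, beside 49.4% of all genes tested, and none passed limma at the adjusted threshold. Groups did not overlap in 3 of the 12, all higher, beside 4.83% of all genes tested. Their median log2 fold change was 0.11. They summed to 116914 to 141526 scaled counts in irradiated and 111762 to 118045 in control libraries. *Mki67*, the Ki-67 gene, had a log2 fold change of 0.32 (SE 0.14) and *Top2a*, encoding topoisomerase II alpha, 0.20 (SE 0.10). The part of proliferation in the repair gene levels was not tested.

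End joining uses the Ku heterodimer, encoded by *Xrcc6* (Ku70) and *Xrcc5* (Ku80), which loads the kinase encoded by *Prkdc*. *Xrcc5* had the lowest p of all 47 members, with 1707, 1679 and 1796 scaled counts in irradiated libraries, against 1530, 1520 and 1449 in controls. All irradiated libraries were above all controls. The log2 fold change was 0.20 (SE 0.10, 95% interval -0.025 to 0.43, limma adjusted p = 1). *Xrcc6*, the partner subunit, had 1963, 1796 and 1651 in irradiated libraries, against 2035, 1894 and 1616 in controls, which overlapped (log2 fold change -0.033, 95% interval -0.31 to 0.25). Whether the 2 subunits differed from each other in response was not tested. *Prkdc* stood at 1524 ± 62.3 in irradiated and 1605 ± 219 in control libraries (log2 fold change -0.067). The ligation genes *Xrcc4*, *Lig4* and *Nhej1* had log2 fold changes of 0.11, 0.025 and -0.053. *Xrcc4* averaged 539.8 ± 48.0 scaled counts in irradiated and 499 ± 44.98 in control libraries. *Lig4* averaged 447 ± 78.9 scaled counts in irradiated and 451 ± 141 in control libraries. *Nhej1* averaged 130.4 ± 11.8 scaled counts in irradiated and 136 ± 19.6 in control libraries. Across the whole set, *Xrcc5* and *Parp1* were the only members whose groups did not overlap, 2 of 47, both higher in irradiated libraries. Groups did not overlap in 8.83% of all genes tested, 4.83% higher and 4.01% lower, and no member was lower without overlap.

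Single-strand break and base excision repair genes had a median log2 fold change of 0.053, with 5 of 6 fitted higher. *Parp1*, encoding the poly(ADP-ribose) polymerase that senses nicks, had 8790, 9282 and 9166 scaled counts in irradiated libraries and 8781, 8095 and 7962 in controls. The groups were separated by only 8790 against 8781, and the log2 fold change was 0.13 (SE 0.094, limma adjusted p = 1). The related *Parp2* stood at 1401 ± 37.5 in irradiated and 1346 ± 38.3 in control libraries (log2 fold change 0.057). The nick-sealing pair *Xrcc1*, a scaffold gene, and *Lig3*, its ligase gene, had log2 fold changes of 0.068 and 0.043. *Xrcc1* averaged 2030 ± 79.9 scaled counts in irradiated and 1951 ± 287 in control libraries. *Apex1*, encoding the abasic site endonuclease, had a log2 fold change of 0.049, and *Ogg1*, encoding the 8-oxoguanine glycosylase, -0.091. *Apex1* averaged 4413 ± 407 scaled counts in irradiated and 4261 ± 262 in control libraries. *Ogg1* averaged 458 ± 38.0 scaled counts in irradiated and 489 ± 48.0 in control libraries.

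In nucleotide excision repair 5 of 7 genes were fitted lower, with a median log2 fold change of -0.096. *Ddb1*, encoding an adaptor of the CUL4 ubiquitin ligase, had 19458, 20419 and 18985 scaled counts in irradiated libraries and 21066, 17741 and 19111 in controls, with the irradiated values inside the control range (log2 fold change 0.026, 95% interval -0.21 to 0.26). *Ddb2* and *Xpc*, which encode damage sensors and are p53 targets in human cells, had lower fitted levels while *Cdkn1a* was higher. *Ddb2* had 312, 320 and 271 in irradiated libraries, against 301, 379 and 309 in controls (log2 fold change -0.13, 95% interval -0.50 to 0.24). *Xpc* had 715, 708 and 752 in irradiated libraries, against 731, 807 and 789 in controls (log2 fold change -0.096, 95% interval -0.36 to 0.17). Neither gene had an interval that reached a 1.5-fold higher level. The damage verification gene *Xpa* had a log2 fold change of -0.048, the helicase gene *Ercc2* -0.15, and the incision nuclease genes *Ercc1* and *Ercc5* -0.12 and 0.12. *Ercc2* averaged 1327 ± 168 scaled counts in irradiated and 1461 ± 56.0 in control libraries. *Ercc1* averaged 817 ± 53.3 scaled counts in irradiated and 888 ± 48.3 in control libraries. *Ercc5* averaged 1382 ± 69.9 scaled counts in irradiated and 1280 ± 183 in control libraries. *Msh6*, the single mismatch repair gene, had 3397, 3310 and 3088 scaled counts in irradiated and 3343, 3178 and 3259 in control libraries (log2 fold change 0.0015).

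**Figure D2:**
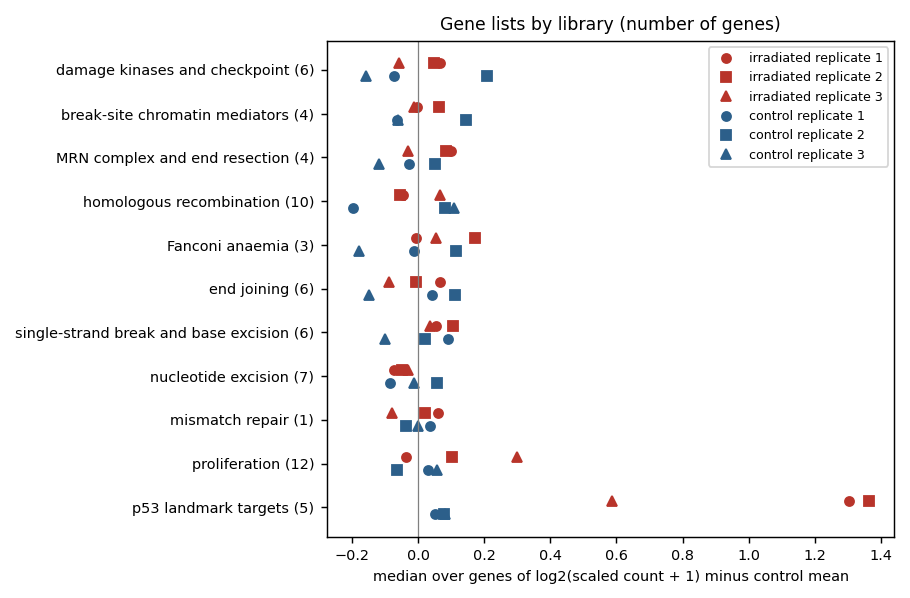
Median over the genes of each list (number of genes in brackets) of log2(scaled count + 1) minus the control mean, for each library, with irradiated libraries in red and controls in blue. In each repair pathway the 2 groups overlap, while the p53 targets lie at 0.59 to 1.36 in irradiated libraries and 0.051 to 0.082 in controls.

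Taken by library, the median deviation of the 47 members from the control mean was 0.034, 0.0079 and -0.023 on the log2 scale in irradiated libraries and -0.055, 0.097 and -0.064 in controls, which overlapped. The 5 p53 targets *Cdkn1a*, *Ccng1*, *Phlda3*, *Mdm2* and *Sesn2*, by contrast, had medians of 1.30, 1.36 and 0.59 in irradiated libraries and 0.051, 0.077 and 0.082 in controls, and 2 of the 5 passed limma. With the replicate block limma called 4 of the 5, as did DESeq2, *Mdm2* being the exception. This contrast of lists was not tested.

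As over all genes tested, much of the variation in the repair genes followed the replicate number. Equal numbers were taken as pairs because same-numbered libraries varied together in these data, so this share is not separate evidence for the pairing. *Rad51ap1* showed it most clearly, with 1257, 1505 and 2094 scaled counts in irradiated libraries 1, 2 and 3 and 1347, 1577 and 2128 in control libraries 1, 2 and 3. The library numbered 3 was highest in both groups, and the number accounted for 98.5% of the sum of squares of this gene. All 4 Y-linked genes were also highest in library 3 of both groups. The parts of the replicate number and of the Y-linked level were not tested apart. *Xpa* had 359, 386 and 577 in irradiated libraries, against 404, 373 and 586 in controls, again highest in library 3. *Lig3* had 3560, 3572 and 2620 in irradiated libraries, against 3332, 3433 and 2661 in controls, and was lowest in library 3. Over the 47 members the number accounted for a median of 60.7% of the sum of squares and irradiation for 7.99%, beside 54.9% and 10.1% over all genes tested. The number has 3 values and irradiation 2, so these shares are not on an equal footing. All 3 same-numbered pairs differed in one direction in 13 members, 7 higher and 6 lower, or 27.7%, beside 29.8% of all genes tested.

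**Figure D3:**
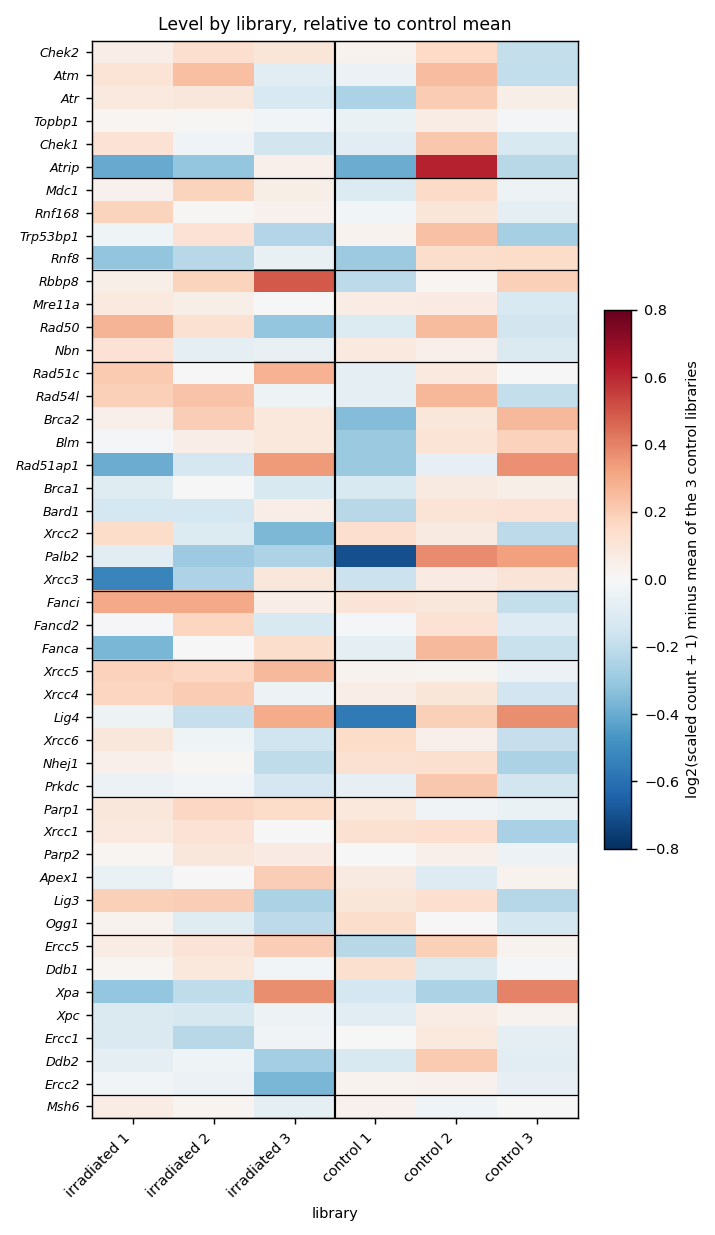
Log2(scaled count + 1) of each member in each library minus the mean of the 3 controls, with irradiated libraries left of controls and lines between pathways. Rows such as *Rad51ap1* and *Xpa* are high in library 3 of both groups, and no block of rows separates irradiated from control libraries.

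**Figure D4:**
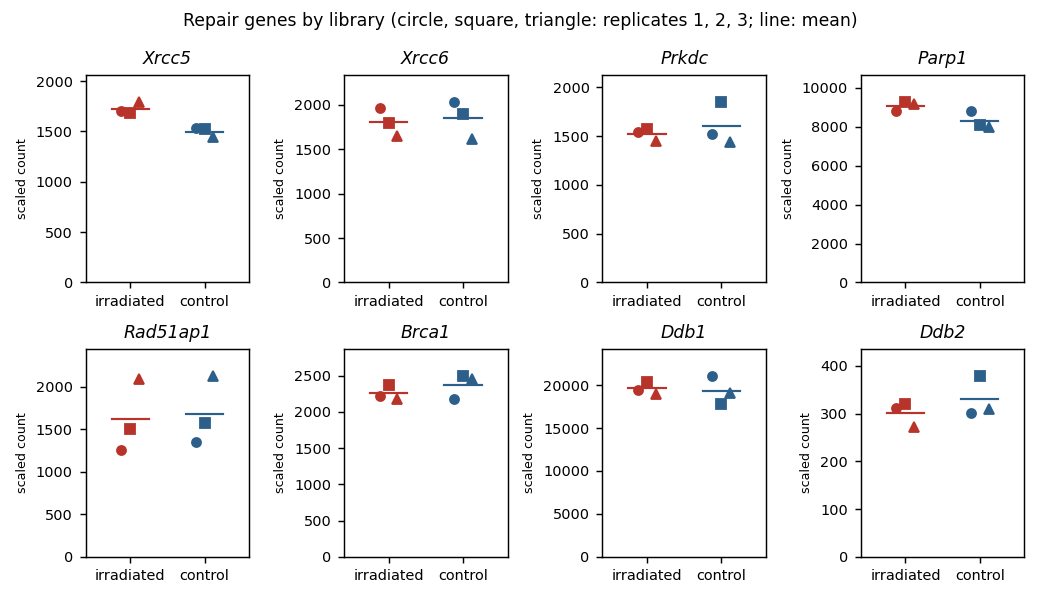
Scaled counts of 8 members by library, irradiated left of control, with the replicate number as the symbol and the mean as a line. *Xrcc5* and *Parp1* have groups that do not overlap, and the other 6 overlap.

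Levels of different genes were compared per kilobase of exon, using the union of annotated exons. *Apex1* and *Ddb1* were highest, at 3104 ± 286 and 3061 ± 114 scaled counts per kilobase in irradiated libraries and 2996 ± 184 and 3012 ± 261 in controls, and did not differ from each other beyond their spread. *Parp1* followed at 1715 in irradiated and 1564 in control libraries, and *Msh6* at 751 in irradiated and 750.1 in control libraries. In end joining, the irradiated and control levels were 676 and 587 for *Xrcc5*, 403 and 413 for *Xrcc6*, and 116 and 122 for *Prkdc*. Among the recombination genes, *Rad51ap1* was highest at 336 in irradiated and 349.9 in control libraries and *Palb2* was lowest at 38.0 in irradiated and 46.3 in control libraries. *Atrip* was the lowest of all, at 4.35 in irradiated and 5.33 in control libraries. Exon unions include rare isoforms, so a per-kilobase level is a lower estimate for a gene with long unused exons.

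**Figure D5:**
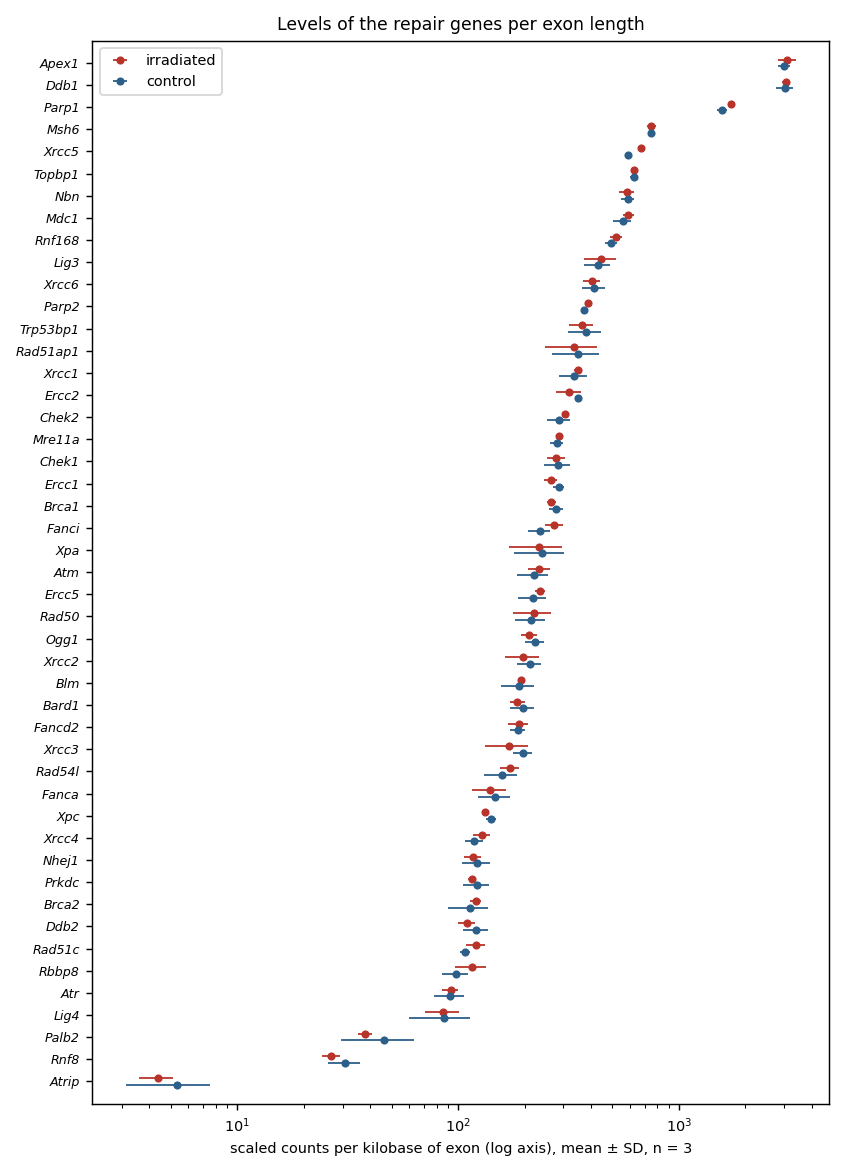
Scaled counts per kilobase of exon (log x axis) of the 47 members, mean ± SD of 3 libraries, irradiated in red above control in blue. The order runs from *Apex1* and *Ddb1* at 3104 and 3061 in irradiated libraries down to *Atrip* at 4.35.

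Promoter windows were read for the members because many repair genes are known targets of E2F factors, which act in late G1 and S phase. RefSeq windows on GRCm38.p6 were found for 39 of the 47 members, as 42 windows, and the 250 bases before each start site were searched on both strands. The E2F core, spelled TTTGGCGC, TTTGCCGC, TTTCGCGC or TTTCCCGC, occurred in 6 of the 42 windows, 14.3%, beside 1.86% of all 32851 windows. The cell cycle element spelled TTTGAA or TTCGAA occurred in 11.9%, beside 17.1% of all windows, and the CCAAT box in 21 of the 42, beside 33.8% of all windows. By gene the CCAAT box was found in 20 of the 39 members, as overlapping windows of *Rad54l* share a box. The base composition of the windows was not matched. The members with an E2F core were *Bard1*, *Brca2*, *Chek2*, *Mdc1*, *Topbp1* and *Xrcc6*, and their log2 fold changes were -0.076, 0.11, 0.093, 0.087, -0.0012 and -0.033. The windows of the Ku pair are shown because its subunits were the lowest-p member and its partner, and those of *Brca2* and *Topbp1* as examples with an E2F core. Each is 250 bases, 5′ to 3′ on the strand of the gene, with the E2F core or CCAAT box of either strand in capitals.
Xrcc5 (chr1:72307171-72307420, plus strand): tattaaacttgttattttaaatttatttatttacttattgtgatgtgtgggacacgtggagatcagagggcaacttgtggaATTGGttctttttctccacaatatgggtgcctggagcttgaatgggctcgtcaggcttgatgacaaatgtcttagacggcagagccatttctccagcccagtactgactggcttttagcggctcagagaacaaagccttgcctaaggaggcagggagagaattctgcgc
Xrcc6 (chr15:82016119-82016368, plus strand): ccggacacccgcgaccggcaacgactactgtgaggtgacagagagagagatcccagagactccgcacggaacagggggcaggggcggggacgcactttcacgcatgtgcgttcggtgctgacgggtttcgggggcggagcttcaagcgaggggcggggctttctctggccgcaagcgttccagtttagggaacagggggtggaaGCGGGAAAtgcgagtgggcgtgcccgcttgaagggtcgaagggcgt
Brca2 (chr5:150522371-150522620, plus strand): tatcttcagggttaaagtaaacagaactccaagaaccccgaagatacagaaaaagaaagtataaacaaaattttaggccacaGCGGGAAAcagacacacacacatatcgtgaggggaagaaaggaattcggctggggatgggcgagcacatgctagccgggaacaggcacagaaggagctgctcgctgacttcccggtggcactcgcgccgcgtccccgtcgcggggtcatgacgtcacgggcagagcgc
Topbp1 (chr9:103305077-103305326, plus strand): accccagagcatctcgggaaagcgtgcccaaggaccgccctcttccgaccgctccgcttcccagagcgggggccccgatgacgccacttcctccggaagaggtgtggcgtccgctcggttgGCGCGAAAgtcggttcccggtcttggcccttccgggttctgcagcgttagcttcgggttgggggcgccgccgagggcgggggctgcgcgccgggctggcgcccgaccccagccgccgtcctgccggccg
The window of *Xrcc5* holds a CCAAT box and no E2F core, and those of *Xrcc6*, *Brca2* and *Topbp1* hold an E2F core and no CCAAT box. A match is a description of the letters, not evidence of binding.

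A wider list held 123 other repair genes. Of these, 121 were in the table and tested, 63 fitted higher and 58 lower, with a median log2 fold change of 0.0081. None passed limma at an adjusted p below 0.05 and none had an unadjusted p below 0.05, against 0.054% and 4.5% of all genes tested. The groups did not overlap in 3 of the 121, all higher in irradiated libraries, beside 8.83% of all genes tested. *Ercc3* and *Parg* are among them and are named here after their values were seen. *Ercc3*, a helicase gene of transcription factor TFIIH, had 1585, 1615 and 1498 scaled counts in irradiated libraries, against 1491, 1329 and 1412 in controls, and *Parg*, the poly(ADP-ribose) glycohydrolase gene, 2118, 2227 and 2107 in irradiated libraries, against 2048, 2063 and 1996 in controls. Their log2 fold changes were 0.15 and 0.079. *Rrm2b*, a p53-inducible ribonucleotide reductase gene, stood at 613 ± 59.6 in irradiated and 576 ± 51.1 in control libraries (log2 fold change 0.089).

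In the annotation, *Xrcc5* (ENSMUSG00000026187.8) lies on chromosome 1 from 72307421 to 72394952 and *Parp1* (ENSMUSG00000026496.11) on chromosome 1 from 180568924 to 180601254, both protein-coding genes on the plus strand of GRCm38. *Fanci* (ENSMUSG00000039187.16) lies on chromosome 7 from 79391929 to 79450264. Of the 47 members, 31 overlap another annotated gene, 26 of them one on the opposite strand, and without a stated strand setting their reads may be mixed.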

How the data were processed

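The members and gene lists were chosen with earlier results of these data known. Per the submitters' processing notes the tools were HTSeq and DESeq and the genome mm10. No label names an aligner or a strand setting. The authors deposited a signal that from the values is a count of reads divided by a library size factor, with 1 added by the authors. With the 1 taken off, 100% of values in each library were whole multiples of 1 read within 0.001 reads, with size factors of 0.953 to 1.16. The lowest sum over the 6 libraries was 15 reads, so rarer genes are not analysed here.

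Groups were compared by limma-trend on log2 values, with limma 3.58.1 in R 4.3.3. The fit covered the 16674 genes averaging 10 or more scaled counts, with Benjamini-Hochberg adjustment over all of them and two-sided tests. edgeR 4.0.16 and DESeq2 1.42.0 on the recovered reads were alternatives. The tests were checked on simulated counts with changes of 2-fold or more. The simulation used the same spread setting for every gene and no variation by replicate number. It therefore cannot show whether changes as small as those fitted for the members would be found. Coordinates and exon lengths are from GENCODE M21 on GRCm38, which may not be the annotation the authors used. Every member is named; values of every library are given for members whose groups did not overlap and for the highest member of each pathway, and for others chosen after their values were seen. The result of 1 gene outside the 47 members is not reported here.

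Replicates are numbered alike in both groups. Deviations from the group means over 16674 genes correlated by 0.305, 0.151 and 0.451 between same-numbered libraries 1, 2 and 3, all above 0.1. Between libraries of different number the correlations ran from -0.342 to 0.0503. Deviations within a group cancel out, so these correlations are not independent of each other. They alone are the ground for treating equal numbers as pairs, since no label explains the numbers. No pair of libraries looked like a repeat deposit (chi-square per degree of freedom at least 16.7).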

Additional observations from a re-analysis of the deposited data

How the results depend on the processing

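No member passed an adjusted p of 0.05 in any of the 16 alternative settings, and the lowest adjusted p of a member was 0.277, for *Rad51ap1* with the Y-linked level as a covariate. The replicate block, in limma or edgeR, changed no call, left the count of members called at 0 and gave a member median of 0.014 in limma, with 25 members fitted higher. Leaving out each library in turn gave 0 calls, 20 to 30 members fitted higher and member medians of -0.020 to 0.072. Over these leave-outs the pathway medians ran from -0.030 to 0.12 for end resection and stayed closer to the value with 6 libraries than the spread between libraries in the other pathways. With the Y-linked covariate the medians moved by more than that spread in 4 pathways, to 0.11 for the break-site chromatin factors, 0.14 for end resection, 0.19 for end joining and 0.14 for base excision. With that covariate 6 members had an unadjusted p below 0.05, against 0 without it, and the cause was not tested. Over all genes tested limma called 9, with the block 25, with the Y-linked covariate 28, and DESeq2 called 102.

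Across these settings 74 of 751 member values changed sign, in 29 members. With the Y-linked covariate the log2 fold change was -0.043 for *Atr*, 0.084 for *Chek1*, 0.17 for *Trp53bp1*, 0.12 for *Nbn*, -0.064 for *Rbbp8*, -0.17 for *Brca2*, -0.19 for *Blm*, 0.19 for *Xrcc2*, 0.017 for *Prkdc*, 0.19 for *Xrcc6*, -0.49 for *Lig4*, 0.20 for *Nhej1*, 0.099 for *Ogg1*, -0.0072 for *Apex1* and -0.015 for *Ercc5*. It was -0.004 for *Atr*, -0.027 for *Lig4* and -0.0077 for *Msh6* in edgeR, -0.015 for *Lig4* in DESeq2, and for *Msh6* -0.0087 with TMM scaling, -0.0018 with total read scaling and -0.0087 in edgeR with the block. Over the leave-outs that changed a sign, log2 fold changes ran from -0.014 to 0.21 for *Atm*, -0.11 to 0.12 for *Atr*, -0.42 to 0.084 for *Atrip*, -0.086 to 0.088 for *Chek1*, -0.0018 to 0.17 for *Chek2*, -0.029 to 0.030 for *Topbp1*, -0.19 to 0.065 for *Trp53bp1*, -0.071 to 0.030 for *Nbn*, -0.018 to 0.077 for *Mre11a*, -0.092 to 0.20 for *Rad50*, -0.068 to 0.24 for *Brca2*, -0.27 to 0.12 for *Rad51ap1*, -0.10 to 0.14 for *Blm*, -0.23 to 0.020 for *Xrcc2*, -0.18 to 0.073 for *Fanca*, -0.065 to 0.082 for *Fancd2*, -0.14 to 0.041 for *Prkdc*, -0.13 to 0.040 for *Xrcc6*, -0.26 to 0.21 for *Lig4*, -0.18 to 0.023 for *Nhej1*, -0.060 to 0.13 for *Xrcc1*, -0.072 to 0.19 for *Lig3*, -0.025 to 0.099 for *Apex1*, -0.26 to 0.15 for *Xpa*, -0.033 to 0.091 for *Ddb1* and -0.028 to 0.041 for *Msh6*. The 18 other members kept their sign in all alternatives in which they were tested. With 3 libraries per group, changes inside the intervals given are not excluded, and larger changes can also miss the adjusted threshold of limma. Of the 5 p53 targets, 2 passed it. *Ccng1* did not, with a log2 fold change of 0.88 (limma interval 0.52 to 1.23, limma adjusted p = 0.169). *Sesn2* also did not, with a log2 fold change of 1.09 (limma interval 0.53 to 1.64, limma adjusted p = 0.339).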

Other observations

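Outside the 47 members, a few repair genes are given here, chosen after their values were seen, for their spread between libraries or their role. *Tdg*, encoding thymine DNA glycosylase, had 714, 429 and 946 scaled counts in irradiated libraries and 435, 865 and 178 in controls. *Rmi2*, encoding a subunit of the Bloom helicase complex, had 492, 375 and 221 in irradiated and 340, 396 and 136 in control libraries, lowest in library 3 of both groups. *Pcna*, the sliding clamp gene that is also a p53 target in human cells, had 9851, 9439 and 12033 in irradiated libraries and 10899, 9461 and 10913 in controls, a log2 fold change of -0.0027 (SE 0.12).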
